A study of Homo sapiens with 9 samples.

Results

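The miR-29 family was followed through a trapping experiment that asked which miRNAs of the ovarian cancer line ES-2 associate with the 3'UTR of PD-L1, the immune checkpoint ligand encoded by CD274. The members were chosen by name as the rows of hsa-miR-29a-3p, hsa-miR-29b-3p, hsa-miR-29c-3p and hsa-miR-29a-5p (the species prefix hsa is left off from here on), with the loci of a name summed, and make 4 of the 2652 miRNA names in the count table. In miTRAP (miRNA trapping by RNA affinity purification), MS2 loops in the bait RNA tether it, through an MS2 binding protein fused to maltose-binding protein, to amylose resin, cell extract is added, and the small RNAs retained are sequenced. The 9 libraries were 3 of the lysate input, 3 of an MS2 control bait and 3 of the PD-L1 3'UTR bait. All came from extracts of ES-2, labelled wild type (WT) and untreated, so a single cell line stands behind every value. Per the study's methods, the 2 baits were loaded in different amounts, so bait sequence and bait amount cannot be told apart in any comparison of the traps.

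A miRNA guides an Argonaute protein to mRNAs mainly through its seed, bases 2 to 8 of the mature strand, which pair with matches in 3'UTRs. The miR-29 guide strands share one seed and are known as repressors of collagen and other extracellular matrix genes and of the de novo DNA methyltransferases. They are made from 2 gene clusters. As a rule the 3p arm of a hairpin is the guide, while the 5p arm is the partner strand that is mostly degraded. In these libraries the 5p arm of miR-29c nonetheless made 38.6% to 45.2% of the reads of both its arms (group means), at low counts.

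The sequences are shown because the guides differ by so few bases that their reads must be told apart by them. Capitals mark the seed, and the sequences are those of RefSeq (GRCh38.p14), in which all 4 members and the other miR-29 arms have an entry.
miR-29a-3p: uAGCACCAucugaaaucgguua
miR-29c-3p: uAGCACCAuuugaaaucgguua
miR-29b-3p: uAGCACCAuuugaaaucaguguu
Counted from the 5' end, with the base of miR-29a-3p first, miR-29c-3p differed from miR-29a-3p by C10U alone. miR-29b-3p differed from it by C10U, G18A, U21G and A22U and was 23 bases long, against 22 for the others. A read of miR-29a-3p with a single changed base could therefore be counted as miR-29c-3p, and this was not tested. The seeds of the partner arms differed from that of the guides.
miR-29a-5p: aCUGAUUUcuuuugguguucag
miR-29b-1-5p: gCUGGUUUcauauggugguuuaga
miR-29b-2-5p: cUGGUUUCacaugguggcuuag
miR-29c-5p: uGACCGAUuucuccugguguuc
On GRCh38.p14, MIR29A encodes both miR-29a strands on the minus strand of chromosome 7, miR-29a-3p at chr7:130876748-130876769 and miR-29a-5p at chr7:130876786-130876807. The MIR29B1 hairpin lies 648 bases away and holds a copy of miR-29b-3p at chr7:130877467-130877489. The other copy lies in MIR29B2 at chr1:207802450-207802472, also on the minus strand, where the MIR29C hairpin lies 503 bases from that of MIR29B2, with miR-29c-3p at chr1:207801865-207801886. Since the mature sequence of both miR-29b copies is the same, the deposited split of its reads, with 45.0% to 52.1% on chromosome 1, does not tell the clusters apart. The partner arms miR-29b-1-5p and miR-29b-2-5p do belong to a single hairpin each.

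The libraries held 3794799 to 5983577 miRNA counts in the input, 1156261 to 2236535 in the MS2 control and 672824 to 1237652 in the PD-L1 3'UTR trap. Levels are CPM, the count of a miRNA scaled to a common library size, with TMM factors unless stated, and 3 counts, the limit that a count of 0 allows, were worth 0.68 to 4.02 CPM by library, for counting error only. The labels do not say that replicates were separate cultures, so p values measure the spread between these libraries. miRNAs of blood and serum summed to 149 to 200 CPM (unscaled) in the input, 355 to 448 in the MS2 control and 607 to 1625 in the PD-L1 3'UTR trap. Those of muscle, neurons, liver and endothelium summed to 5.52 to 19.8, 138 to 259 and 47.2 to 2939, the last being PD-L1 3'UTR replicate 1, while its replicates 2 and 3 held 153 and 47.2. Of these 6 markers, 3 passed the filter, and miR-133a-3p of muscle and miR-124-3p of neurons were at 0 in every input library. Of the 6 blood and serum markers 3 passed as well, with miR-144-3p at 0 in the input. Epithelial miRNAs summed to 30.8 to 41.9 CPM in the input, 63.0 to 97.4 in the MS2 control and 346, 69.9 and 41.5 in replicates 1 to 3 of the PD-L1 3'UTR trap, with miR-429 at 0 throughout. Their part in the miR-29 results was not tested, and the main results on the PD-L1 3'UTR trap are also given without its replicate 1.

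miR-29a-3p was by far the most abundant member in all 9 libraries. The input libraries held 12564, 10085 and 10772 CPM of it, the MS2 control 7112, 8246 and 9540.1 CPM, and the PD-L1 3'UTR trap 11923, 9382 and 8933 CPM. Means were 11140.2 ± 1279.6 CPM for the input, 8299 ± 1215 for the MS2 control and 10079 ± 1612 for the PD-L1 3'UTR trap (SD, n = 3 each). Both traps overlapped each other, and only the MS2 control lay wholly below the input. Among the 408 miRNAs tested, miR-29a-3p ranked 16 by level in the input, 21 in the MS2 control and 18 in the PD-L1 3'UTR trap. As a share of all miRNA counts, without TMM, it made 0.843% ± 0.0863, 0.969% ± 0.108 and 1.13% ± 0.198 in the same order of groups. By share the input was thus lowest, whereas with TMM its mean was above both traps.

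miR-29b-3p was the second member by level. It reached 520 CPM, 509.8 CPM and 598 CPM in the input, 177, 269 and 341 CPM in the MS2 control and 946, 633 and 652 CPM in the PD-L1 3'UTR trap. The 3 groups did not overlap, with the MS2 control lowest and the PD-L1 3'UTR trap highest, at means of 543 ± 48.3, 262 ± 82.2 and 744 ± 175 CPM. Its rank among the 408 was 88 in the input, 103 in the MS2 control and 75 in the PD-L1 3'UTR trap.

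miR-29c-3p and miR-29a-5p were rare, and their precision is limited by counts. miR-29c-3p had 79, 35 and 68 counts in the input, 13, 18 and 37 in the MS2 control and 33, 7 and 16 for the PD-L1 3'UTR trap. Its mean levels of 16.0 ± 4.53, 14.5 ± 11.7 and 14.8 ± 7.51 CPM overlapped throughout. miR-29a-5p, the partner strand of the MIR29A hairpin, had 31, 19 and 30 counts in the input, 23, 18 and 15 in the MS2 control and 82, 33 and 53 for the PD-L1 3'UTR trap. On the CPM scale these were 8.15, 6.41 and 6.76 in the input, 14.9, 7.14 and 11.3 in the MS2 control and 58.1, 44.3 and 38.5 for the PD-L1 3'UTR trap. Each PD-L1 3'UTR library stood above all 6 others, whereas input and MS2 control overlapped. The order miR-29a-3p, miR-29b-3p, miR-29c-3p, miR-29a-5p of the input held in the MS2 control, where the ranges of the last pair overlapped, and in the PD-L1 3'UTR trap miR-29a-5p stood above miR-29c-3p without overlap. How well the library kit captures each strand was not corrected for, so levels of different strands compare reads and not molecules.

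**Figure D1:**
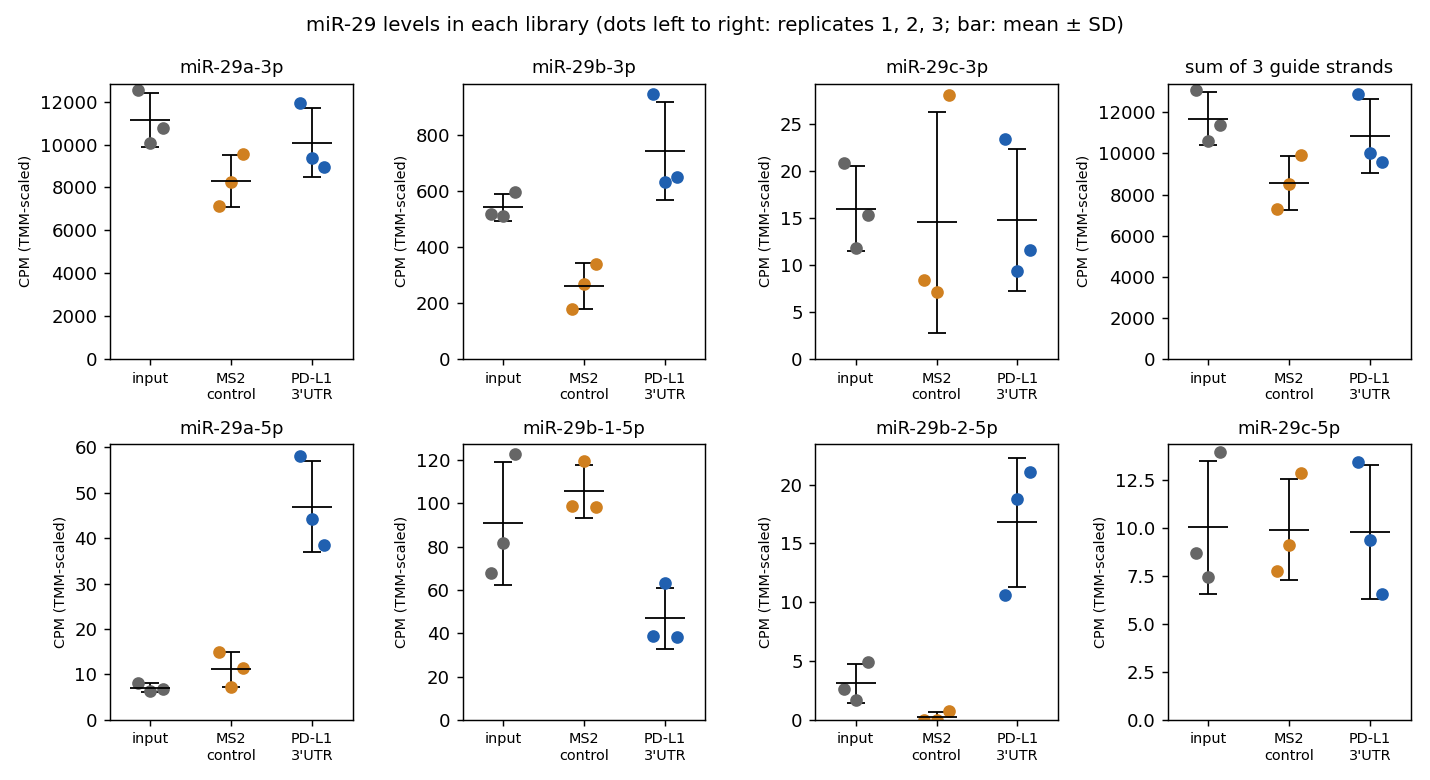
TMM-scaled CPM (vertical axes, linear, each panel on its own scale from 0) of the miR-29 members, their guide sum and the other arms in the 9 libraries, with a dot for each replicate and a bar for the mean ± SD of a group. miR-29b-3p separates all 3 groups (means 543, 262 and 744 CPM in input, MS2 control and PD-L1 3'UTR), and miR-29a-5p stands apart in the PD-L1 3'UTR trap alone (46.9 CPM against 7.11 and 11.1).

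Setting the PD-L1 3'UTR trap against the MS2 control compares baits that differed both in sequence and in the amount loaded. miR-29b-3p and miR-29a-5p rose, and miR-29a-3p and miR-29c-3p did not pass the test. miR-29b-3p was higher by 1.50 ± 0.25 (log2 fold change ± SE, n = 3 against 3, adjusted p = 0.000381 by edgeR's quasi-likelihood test with Benjamini-Hochberg adjustment over all 408). miR-29a-5p was higher by 2.10 ± 0.34 (adjusted p = 0.000335, edgeR). These 2 of 4 members stand against a background of 31.4% of all tested miRNAs called higher and 28.7% called lower (60.0% in either direction). miR-29a-5p passed the filter on low counts with help of the PD-L1 3'UTR libraries, since 3 libraries must reach 8.05 CPM (unscaled) and those that did were 3 libraries of that trap, 2 MS2 control libraries and 0 input libraries. Without the filter, over 1500 miRNAs, it was also called, at 2.10 (adjusted p = 0.000112, edgeR). Their libraries were also the only ones of the members that did not overlap between the traps, 2 of 4, against 65.7% of all miRNAs tested. With 4 members, neither count is a result about the family as a set. For the abundant guide miR-29a-3p the difference was 0.28 ± 0.16 (adjusted p = 0.145, edgeR), with a 95% interval of -0.07 to 0.63. For miR-29c-3p it was 0.11 ± 0.58 (adjusted p = 0.895, edgeR) with an interval of -1.17 to 1.39, so at this depth a difference of a whole log2 unit in either direction lay within the interval. The 3 guides summed, which avoids the split of reads between near-identical strands, differed by 0.34 ± 0.16 (adjusted p = 0.0813, edgeR). Without PD-L1 3'UTR replicate 1, miR-29b-3p was higher by 1.33 and miR-29a-5p by 1.94, both still called, and miR-29a-3p differed by 0.18.

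Against the input, the PD-L1 3'UTR trap held more miR-29a-5p and no called difference in a guide strand. miR-29a-5p was higher by 2.71 ± 0.34 (n = 3 against 3, adjusted p = 5.86e-05, edgeR), by 2.45 without the filter on low counts (adjusted p = 3.18e-06, edgeR) and by 2.47 without PD-L1 3'UTR replicate 1. That omission left miR-29a-3p at -0.33 and miR-29b-3p at 0.19, neither called. miR-29a-5p was the 1 member of 4 called, where 34.1% of all miRNAs were called higher and 32.4% lower (66.4% in either direction). miR-29b-3p did not overlap between the groups but missed the threshold at 0.46 ± 0.24 (adjusted p = 0.122, edgeR; 95% interval -0.08 to 0.99). miR-29b-3p and miR-29a-5p were 2 of 4 members without overlap, against 74.8% of all. miR-29a-3p differed by -0.14 ± 0.16 (adjusted p = 0.429, edgeR) and miR-29c-3p by -0.08 ± 0.55 (adjusted p = 0.914, edgeR), and the summed guides by -0.11 ± 0.16 (adjusted p = 0.536, edgeR). These guide values, made with TMM, depend on the scaling. Scaled by library totals instead, the median of all 408 log2 fold changes moved by 0.57, miR-29a-3p was higher by 0.43 (adjusted p = 0.024, edgeR), miR-29b-3p by 1.03 (adjusted p = 0.00252, edgeR) and the sum by 0.46 (adjusted p = 0.018, edgeR). Calls on all miRNAs were 139 higher and 132 lower with TMM, and 192 and 89 with library totals.

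The MS2 control measures what resin, loops and coupling protein hold without the PD-L1 sequence, at the amount of control bait loaded. Relative to the input, miR-29b-3p fell by 1.05 on the log2 scale (SE 0.25, n = 3 against 3, adjusted p = 0.00317, edgeR) and miR-29a-3p fell by 0.42 (SE 0.16, adjusted p = 0.0312, edgeR). These are 2 of 4 members, where 37.0% of all miRNAs were called lower and 32.8% higher (69.9% in either direction), and 2 of 4 without overlap where 75.5% of all did not overlap. miR-29c-3p differed by -0.18 ± 0.55 (adjusted p = 0.764, edgeR) and miR-29a-5p by 0.62 ± 0.35 (adjusted p = 0.134, edgeR). The summed guides fell by 0.46 (SE 0.16, adjusted p = 0.0236, edgeR). These falls depend on the scaling. That of miR-29b-3p kept its direction in all settings that kept every library (-1.30 to -0.43), but not its call. With library totals the median of all miRNAs moved by 0.63, miR-29a-3p was at 0.20, the sum at 0.18 and miR-29b-3p at -0.43 (adjusted p = 0.113, edgeR), while miR-29a-5p became called at 1.25 (adjusted p = 0.00993, edgeR). Over all miRNAs 134 higher and 151 lower calls became 199 and 104. The fall of miR-29a-3p was also not called with DESeq2 size factors (-0.35, adjusted p = 0.0513, edgeR) or without MS2 control replicate 2 (adjusted p = 0.0631, edgeR). Nor was it called in a fit with the replicate number as a block. All these values are relative within a library, so more of a miRNA held and less of the others held cannot be told apart. The plot of log2 fold changes sets the 3 comparisons side by side, and they share their groups.

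**Figure D2:**
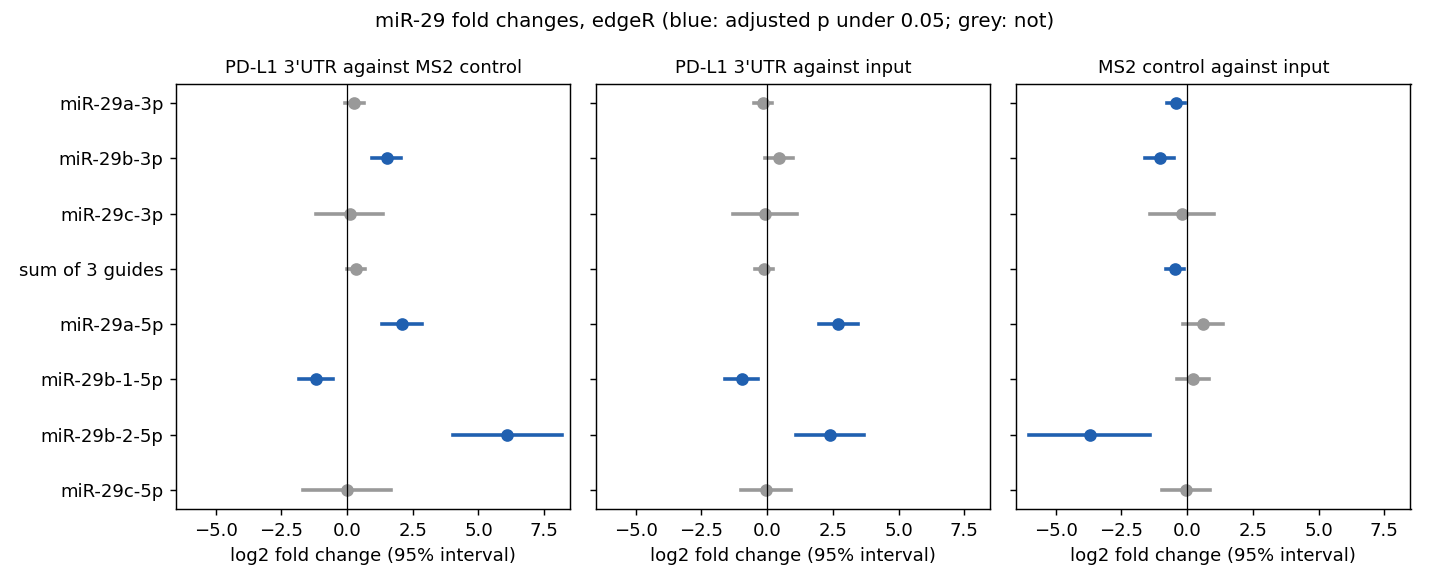
Log2 fold changes (TMM scaling) of the miR-29 members, of the other arms and of the summed guide strands in the 3 comparisons. Lines are 95% intervals from the edgeR fit of 9 libraries, and blue marks an adjusted p under 0.05. Positions of miR-29b-2-5p that involve the MS2 control, which held a single count, depend on the prior count. miR-29b-2-5p passed the filter through the PD-L1 3'UTR libraries alone, so its colour is a description and no test. miR-29a-5p lies to the right of 0 in both comparisons of the PD-L1 3'UTR trap (2.10 and 2.71), whereas miR-29a-3p lies near 0 (0.28 and -0.14).

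The makeup of the family within a library does not depend on the scaling. miR-29b-3p made 3.97%, 4.81% and 5.25% of the reads of the 3 guides in the input, 2.43%, 3.15% and 3.44% in the MS2 control and 7.34%, 6.32% and 6.79% for the PD-L1 3'UTR trap. Its mean share was thus 4.68% ± 0.652, 3.01% ± 0.524 and 6.81% ± 0.510, and no pair of groups overlapped. Over all 1680 assignments of the 9 libraries to 3 groups, the exact permutation test gave p = 0.00357, the smallest it can give (adjusted p = 0.00536 over the 6 shares computed, exact). For each pair of groups the exact test, two-sided, gave p = 0.1, which is the smallest that 3 against 3 allows (adjusted p = 0.15 over 18 comparisons, exact). miR-29a-3p took nearly all the rest, 95.2% ± 0.637 in the input, 96.8% ± 0.595 in the MS2 control and 93.1% ± 0.554 in the PD-L1 3'UTR trap. miR-29c-3p made 0.135% ± 0.0237, 0.160% ± 0.107 and 0.132% ± 0.0448, with p = 0.964 in the same exact test. The share of miR-29b-3p was thus highest in all PD-L1 3'UTR libraries and lowest in all MS2 control libraries.

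**Figure D3:**
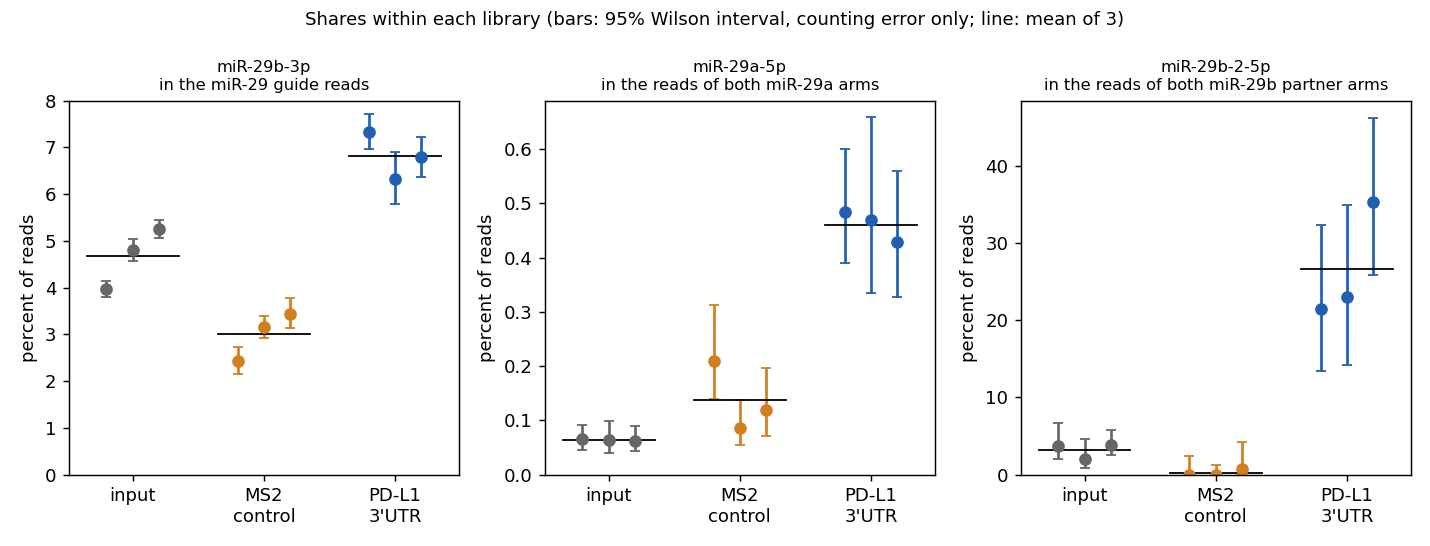
Percent of reads within each library for miR-29b-3p among the guide reads, miR-29a-5p among the miR-29a arms and miR-29b-2-5p among the miR-29b partner arms, with a point and its 95% Wilson interval (counting error only) for each replicate and a line at the group mean. The miR-29b-3p share orders the groups without overlap as MS2 control (3.01%), input (4.68%) and PD-L1 3'UTR (6.81%), and the miR-29a-5p share is 0.461% in the PD-L1 3'UTR trap against 0.0637% in the input.

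The balance of the arms of the MIR29A hairpin differed between the groups. miR-29a-5p made 0.0637% ± 0.00110 of the reads of both miR-29a arms in the input, 0.138% ± 0.0633 in the MS2 control and 0.461% ± 0.0289 in the PD-L1 3'UTR trap, where the libraries held 0.485%, 0.470% and 0.429%. The groups did not overlap, and the exact permutation test over 3 groups gave its smallest p of 0.00357 (adjusted p = 0.00536, exact). Even in the PD-L1 3'UTR trap the 3p guide made nearly all reads of this hairpin.

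The partner arms of the other hairpins are no members of the set but complete the family. miR-29b-1-5p, from the chromosome 7 cluster, fell by 1.19 on the log2 scale against the MS2 control (SE 0.29, n = 3 against 3, adjusted p = 0.00467, edgeR) and by 0.97 against the input (SE 0.29, adjusted p = 0.0126, edgeR), the latter not called with library totals, at -0.40. Its levels were 90.7 ± 28.6 CPM in the input, 106 ± 12.2 in the MS2 control and 46.8 ± 14.1 in the PD-L1 3'UTR trap. miR-29b-2-5p, from the chromosome 1 cluster, went the other way, with 10, 5 and 22 counts in the input, 0, 0 and 1 in the MS2 control and 15, 14 and 29 for the PD-L1 3'UTR trap. It passed the filter through the 3 PD-L1 3'UTR libraries alone, so a higher call in that trap was favoured and its values are given as a description. Pooled CPM were 4.96 times those of the input (exact 95% counting interval 3.23 to 7.71) and 88.4 times those of the MS2 control, where a single count was found (interval 15.2 to 3549). As a share of both miR-29b partner arms, miR-29b-2-5p made 3.21% ± 1.03 in the input, 0.254% ± 0.441 in the MS2 control and 26.6% ± 7.65 in the PD-L1 3'UTR trap, without overlap. miR-29c-5p had 10.02 ± 3.48 CPM in the input, 9.91 ± 2.64 in the MS2 control and 9.79 ± 3.48 in the PD-L1 3'UTR trap and was not called, and its share of the miR-29c arms was 38.6% ± 9.11, 45.2% ± 12.5 and 40.8% ± 7.93. These last 2 shares were chosen after the data were seen and are given with no test.

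Matches to the miR-29 seeds were sought in the CD274 3'UTR of the reference, since the exact extent of the bait was not used here. The exon examined was exon 7 of CD274-202, at chr9:5467863-5470554 on the plus strand of GRCh37, 2692 bases long. A match was a description of letters on the RNA strand only, and background shares are of 4581 genes with a 3'UTR at least as long, read over their first 2692 bases. For the guides, the match to bases 2 to 8 (TGGTGCT) was absent and is held by 21.5% of the genes. The match to bases 2 to 7 followed by A (GGTGCTA, held by 9.91%) and the longest match (TGGTGCTA, 4.52%, which contains both shorter ones) were absent too. The shortest match, GGTGCT to bases 2 to 7, which lies within the others, occurred 1 time and is held by 45.8% of the genes. It is shown in capitals with its flanks, at chr9:5468478-5468483.
miR-29 guide, bases 2 to 7: atttgtaaGGTGCTtggtctcc
For miR-29a-5p, the member that rose most, the match to bases 2 to 7 followed by A (AATCAGA) occurred 1 time, at chr9:5469119-5469125, and is held by 24.1% of the genes.
miR-29a-5p, bases 2 to 7 with A: atcttaatAATCAGAgtaatttt
For miR-29b-1-5p, which fell, the match to bases 2 to 8 (AAACCAG) occurred 1 time, at chr9:5468770-5468776, and is held by 25.3%.
miR-29b-1-5p, bases 2 to 8: acttgcccAAACCAGtaaatagc
For miR-29b-2-5p the match to bases 2 to 7 (AAACCA, held by 65.2%) occurred 2 times, with 1 of these inside the site just shown, and for miR-29c-5p none was found. Matches of 7 letters were thus found for miR-29a-5p and miR-29b-1-5p, and only shorter ones for miR-29b-2-5p and the guides. Whether any match bears on what the trap held was not tested.

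The miR-29 guides were also read beside miRNAs whose seed is 1 base away from theirs. Of the 371 tested miRNAs with a RefSeq sequence (90.9% of 408), 6 had a seed that differed from that of miR-29 by 1 base, and all 6 carried the same one, C6G counted on the mature strand. They are the miR-15/16 family, known for repressing cell cycle and survival genes. The 3 most abundant are shown to set beside the guides above.
miR-16-5p: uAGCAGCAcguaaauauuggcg
miR-15b-5p: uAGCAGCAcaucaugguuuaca
miR-424-5p: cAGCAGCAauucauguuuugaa
These and miR-15a-5p, 4 of the 6, would pass the filter without the PD-L1 3'UTR libraries, and all 4 were called higher against the MS2 control, where 31.4% of all miRNAs were, and higher against the input, where 34.1% were. In the MS2 control all 4 were called lower than in the input, where 37.0% of all were. Without PD-L1 3'UTR replicate 1 these 4 were still called higher in both comparisons of that trap. miR-195-5p and miR-497-5p passed only with the PD-L1 3'UTR libraries, in which they are high (means 37.6 and 25.7 CPM, against 6.62 and 2.41 in the MS2 control), so their higher calls were favoured by the filter. Among all miRNAs with at least 1 count, 2 further names had such a seed. miR-624-5p had 14, 8 and 13 counts in the input, a single count in the MS2 control and 0 in the PD-L1 3'UTR trap, and miR-6838-5p had 1, 2 and 3 counts in the input, 5 in a single MS2 control library and 0 elsewhere. With no filter, 6 of these 8 were called higher and 0 lower against the MS2 control, where 178 and 145 of all 1500 were. Against the input 5 were higher and 1 lower, where 161 and 201 of all 1500 were. miR-16-5p reached 919, 1147 and 1125 CPM in the input, 166, 169 and 236 in the MS2 control and 1280.0, 1477 and 1975 for the PD-L1 3'UTR trap, without overlap. It rose by 3.05 ± 0.22 against the MS2 control (n = 3 against 3, adjusted p = 7.14e-07, edgeR) and by 0.57 ± 0.20 against the input (adjusted p = 0.0293, edgeR), and miR-15b-5p by 4.44 ± 0.38 and 1.05 ± 0.33 in the same order. Their calls against the input were lost on leaving out any of the 3 input libraries, or either of PD-L1 3'UTR replicates 2 and 3, with adjusted p up to 0.234 and 0.112 (edgeR), and that of miR-16-5p also without MS2 control replicate 1 or 3. In the settings that kept every library, miR-16-5p against the input went as low as 0.32, with adjusted p up to 0.353 (edgeR). miR-15b-5p stayed called in those settings, at 0.80 or more. miR-424-5p rose by 3.70 ± 0.26 and 1.75 ± 0.23. The corresponding values of miR-29a-3p were 0.28 ± 0.16 and -0.14 ± 0.16. Those of miR-29b-3p, with the same seed, were 1.50 ± 0.25 (called) and 0.46 ± 0.24 (not called). For the rare miR-29c-3p they were 0.11 ± 0.58 and -0.08 ± 0.55. Differences between the guides and the neighbours were not tested themselves. The plot of change against abundance shows both comparisons.

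**Figure D4:**
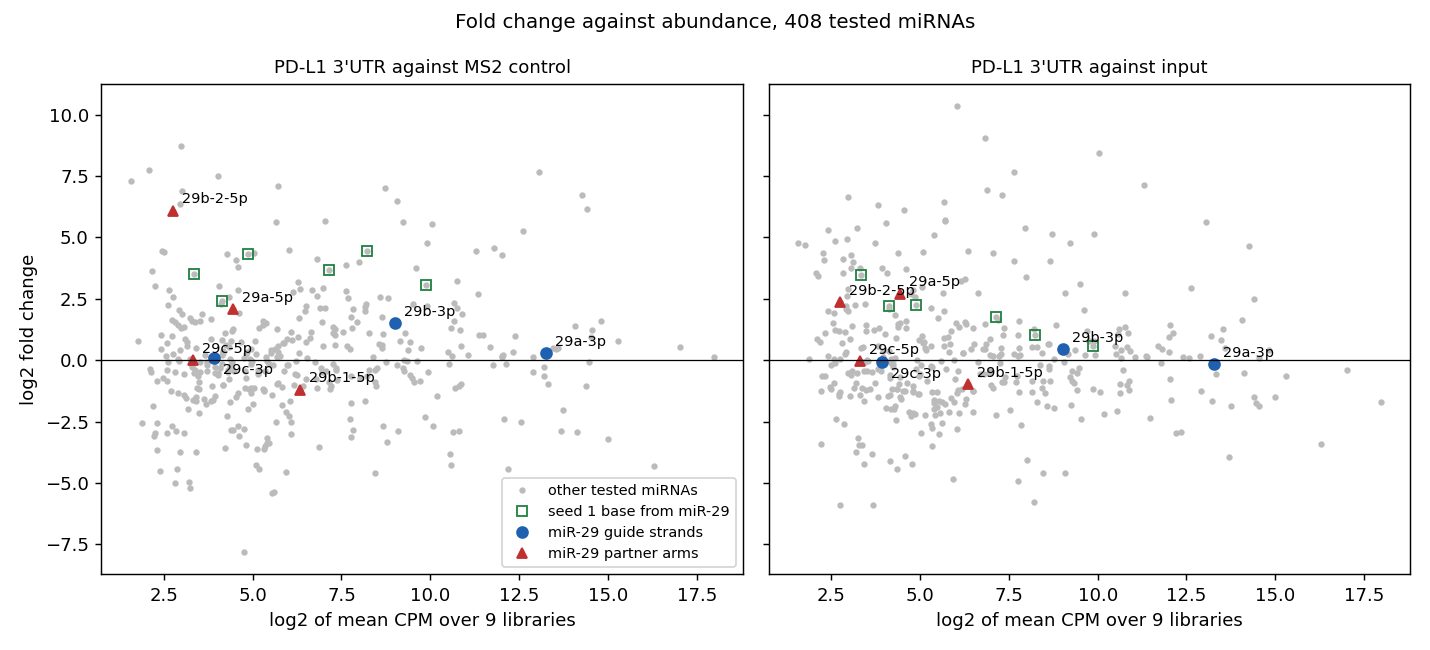
Log2 fold change of the PD-L1 3'UTR trap (vertical axis) against the MS2 control (left) and the input (right), by the log2 of the mean CPM over 9 libraries (horizontal axis), for the 408 tested miRNAs. Guide strands are blue, partner arms red, the 6 seed neighbours green squares and all others grey. miR-16-5p lies at 3.05 on the left and 0.57 on the right, where miR-29a-3p lies at 0.28 and -0.14 and miR-29b-3p at 1.50 and 0.46.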

How the data were processed

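Small RNA of ES-2 cells was measured in 9 libraries, with 3 replicates each of input, MS2 control and PD-L1 3'UTR trap, grouped by sample title. The deposited table holds raw counts that the authors made per mature miRNA locus. The submitters' processing notes name cutadapt 1.18, Bowtie2 2.2.6, featureCounts 1.6.3 and hg38, and how reads with several matches were treated is not given in the sources used here. Loci of a name were summed (2883 loci, 2652 names). The filterByExpr filter, by group, left 408 names and all 4 members. edgeR 4.0.16 in R 4.3.3 was fitted to all 9 libraries (TMM, glmQLFit, glmQLFTest, two-sided, Benjamini-Hochberg, threshold 0.05), and was tested on simulated data. A standard error is the fold change divided by the square root of F. Shares were compared by exact permutation tests (scipy 1.17.1). Since TMM rests on most miRNAs being unchanged, which a trap can break, library totals were tried too, beside DESeq2 1.42.0, other filters, a replicate block and leaving out libraries.

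Members, lists and the naming rule (all members, all other miR-29 arms, the 3 nearest patterns by root-mean-square difference, the 3 most abundant seed neighbours, the 2 most abundant miRNAs of each list) were chosen with earlier results of these data known. Seeds and coordinates are from RefSeq GRCh38.p14 and the 3'UTR from GENCODE on GRCh37. Markers of other cells were summed as unscaled CPM.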

Additional observations from a re-analysis of the deposited data

How the results depend on the processing

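Higher miR-29b-3p against the MS2 control and higher miR-29a-5p against both groups kept their direction and call under every alternative run. Without single libraries these were 1.28 to 1.70 for miR-29b-3p, and 1.81 to 2.36 and 2.47 to 2.77 for miR-29a-5p. Library totals moved values against the input as the median of all moved. PD-L1 3'UTR against input gave 0.43 for miR-29a-3p, 1.03 for miR-29b-3p, 0.50 for miR-29c-3p, 0.46 for the sum, -0.40 for miR-29b-1-5p and 0.54 for miR-29c-5p. MS2 control against input gave 0.20, -0.43, 0.44, 1.25 (miR-29a-5p), 0.18 (sum), 0.85 (miR-29b-1-5p), 0.59 (miR-29c-5p) and 0.18 (miR-26a-5p). For the rest the cause was not tested. With DESeq2 size factors, miR-29a-3p in MS2 control against input was -0.35 (not called) and miR-29c-5p was 0.046 in PD-L1 3'UTR and 0.054 in MS2 control against input. The DESeq2 Wald test called miR-29b-3p in PD-L1 3'UTR against input at 0.53, and gave miR-29c-5p 0.047 and 0.057. It adjusted no p for 4 miRNAs. Without a filter, miR-29b-1-5p in MS2 control against input was -0.028, and lower calls in PD-L1 3'UTR against input went from 132 to 201. With a mean of at least 10 CPM, miR-29c-3p was -0.060 in PD-L1 3'UTR against MS2 control and miR-29c-5p 0.042 in MS2 control against input, and miR-29b-2-5p was not tested, as also in the fit of MS2 control and input alone. Same-numbered replicates did not deviate together (r from -0.18 to 0.13, and 6 of 18 best with their own number). The labels do not say whether same-numbered libraries shared an extract, and these correlations cannot settle it. In every group replicate 1 stood apart from replicates 2 and 3. The chi-square per degree of freedom between the counts of replicates 2 and 3 was 12.5 in the input. It was 39.0 in the MS2 control and 19.5 in the PD-L1 3'UTR trap. Pairs that held replicate 1 gave 109 to 244, and the reason was not tested. A replicate block gave 126 higher and 117 lower calls, 135 and 128, and 129 and 147 in the 3 comparisons. Under the replicate block, miR-29a-3p in MS2 control against input was -0.42 and not called, and miR-29c-5p was 0.0020 and 0.00059 against MS2 control and input. Leaving out each library in turn gave these ranges. In PD-L1 3'UTR against MS2 control, miR-29c-3p ran from -0.37 to 0.93, the sum from 0.23 to 0.41 (called without MS2 control replicate 3), miR-29c-5p from -0.31 to 0.23 and miR-21-5p from -0.052 to 0.24. In PD-L1 3'UTR against input, miR-29c-3p ran from -0.64 to 0.014 and miR-29c-5p from -0.43 to 0.13. In MS2 control against input, miR-29a-3p ran from -0.70 to -0.41, miR-29c-3p from -1.22 to 0.19, miR-29a-5p from 0.25 to 0.89 (called without MS2 control replicate 2), miR-29b-1-5p from -0.051 to 0.33 and miR-29c-5p from -0.39 to 0.13. Low counts limit miR-29c-3p, miR-29a-5p, miR-29c-5p and miR-29b-2-5p.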

Other observations

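Patterns over the 9 libraries were compared by the root-mean-square difference of log2 CPM centred on each miRNA's mean. Some miRNAs are always nearest to a member, and whether they behave alike was not tested. The 3 nearest to each member are named. For miR-29a-3p these were miR-532-5p (0.145), miR-7976 (0.155) and miR-128-3p (0.187). For miR-29b-3p they were miR-101-3p (0.274), miR-574-5p (0.289) and miR-222-3p (0.299). miR-101-3p had mean levels of 1752, 771 and 2327 CPM in input, MS2 control and PD-L1 3'UTR trap, and miR-222-3p of 28695, 13083 and 30422 CPM. For miR-29c-3p, let-7e-3p (0.342), miR-548j-5p (0.383) and miR-149-5p (0.397) lay nearest. For miR-29a-5p, miR-146b-5p (0.430), miR-17-3p (0.431) and miR-130a-3p (0.444) lay nearest, of which miR-146b-5p had mean levels of 190.3, 339 and 1646 CPM in that order of groups.

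miRNAs known, like miR-29, for repressing DNA methyltransferases or EZH2 made a list of 9 outside the miR-29 family, all tested. Against the MS2 control 6 were called higher and 3 lower, where 31.4% and 28.7% of all 408 were, with a median of 1.59 against 0.02 over all. Without PD-L1 3'UTR replicate 1 these were 4 and 3 with a median of 0.29, and that library held 29327 counts of miR-148a-3p and 12888 of miR-143-3p, against at most 355 and 90 in replicates 2 and 3. The DESeq2 Wald test and the replicate block also gave 4 and 3, whereas DESeq2 size factors gave 6 and 3. Against the input 4 were called higher and 4 lower, where 34.1% and 32.4% of all were (median 0.16, against 0.04), and 3 and 4 without that library (median 0.08). In the MS2 control against the input 0 were higher and 7 lower, where 32.8% and 37.0% of all were (median -1.24, against 0.02). With library totals these became 1 and 6, where 199 and 104 of all 408 were higher and lower. miR-148b-3p, which represses DNMT genes, rose by 4.30 ± 0.21 against the MS2 control and 1.44 against the input. miR-26a-5p, a repressor of EZH2, had mean levels of 30878, 22641 and 11038 CPM in input, MS2 control and PD-L1 3'UTR trap, and fell by 1.04 and 1.48 on the log2 scale in the same comparisons. Of a list of 13 miRNAs known in fibrosis, which also holds miR-26a-5p, 9 were tested. The rest were too low for the filter, and miR-200b-3p passed with help of the PD-L1 3'UTR libraries, with 190 counts in replicate 1 and 14 in each of the others. Against the MS2 control 2 were called higher and 1 lower (31.4% and 28.7% of all; median 0.15), and 2 and 2 without PD-L1 3'UTR replicate 1. Against the input 3 were higher and 2 lower (34.1% and 32.4% of all; median 0.12), which became 2 and 3 without that library. With library totals these were 5 and 2 (median 0.69), where 192 and 89 of all 408 were higher and lower (median 0.60 over all). In the MS2 control against the input 0 were higher and 3 lower (32.8% and 37.0% of all; median 0.03). With library totals these became 6 and 1, where 199 and 104 of all 408 were higher and lower (median 0.65 over all). With no filter all 13 were tested, and 7 were higher and 1 lower against the MS2 control, where 178 and 145 of all 1500 were. Of the names this added, miR-214-3p, miR-200a-3p and miR-133a-3p had 26, 75 and 97 counts in PD-L1 3'UTR replicate 1. In its replicates 2 and 3 they had at most 8. miR-21-5p, known in fibrosis and the most abundant of them, fell by 1.72 in the PD-L1 3'UTR trap and by 1.86 in the MS2 control against the input (log2 scale), and differed by 0.15 between the traps (adjusted p = 0.475, edgeR).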
